A study of Mus musculus with 12 samples.

Results

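The PPAR receptors, their partner and coactivators and regulators of sebocyte lipid were followed in periocular skin as 9 genes, of 21247 gene names in the count table. They were picked by symbol, as *Pparg*, *Ppara*, *Ppard*, *Ppargc1a*, *Ppargc1b*, *Rxra*, *Mc5r*, *Angptl4* and *Cidea*, and all 9 passed the filter on low counts. The RNA-seq covered 4 libraries of ft/ft mice, homozygous for a spontaneous point mutation that removes filaggrin function, and 4 of ft/ftMyD88-/- mice, which carry the same mutation and in addition lack MyD88 in the whole body, the adaptor of toll-like and IL-1 family receptors. Both groups were on a BALB/c background, were given as 6 weeks old and came from eye-skin biopsies, with no treatment named in the labels. The 4 WT libraries of the series were not analysed here, and no group carried the MyD88 deletion without the filaggrin mutation, so every value sets one filaggrin-deficient group against the other.

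Peroxisome proliferator-activated receptors (PPARs) are nuclear receptors that bind fatty acids and their derivatives. They act on DNA as heterodimers with a retinoid X receptor, at paired copies of a short core motif, and recruit coactivators such as PGC-1alpha and PGC-1beta. PPARgamma is known as a regulator of fat cell and sebocyte differentiation, PPARalpha of fatty acid oxidation, and PPARdelta is the widespread form of the epidermis. In the sebaceous gland, sebocytes fill with lipid and burst, and the melanocortin 5 receptor is known to promote their secretion.

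Total counts ran from 15802957 to 29255129 per library, and the 9 genes held between 71 and 13242 counts in each, all above the floor of 3 counts. Skin markers were present in both groups, with *Krt5* at 4994 ± 495 CPM (SD, n = 4) in ft/ft and 3131 ± 189 (SD, n = 4) in ft/ftMyD88-/-, where CPM is edgeR's count relative to the TMM-scaled library size. *Myd88* itself, the targeted gene, lay between 25.4 and 36.5 CPM in ft/ft skin and between 32.2 and 48.8 in ft/ftMyD88-/-, so its counts did not separate the groups in the direction of the label. A count per gene does not show which exons were read, so the genotype names stand here for libraries so labelled. *Xist*, transcribed from the inactive X chromosome, was between 34.6 and 66.8 CPM in ft/ftMyD88-/- and at most 0.0429 in ft/ft, whereas the Y-linked *Ddx3y* was between 54.2 and 73.2 CPM in ft/ft skin and at most 0.482 in ft/ftMyD88-/-. The Y-linked *Eif2s3y* was at 45.5 to 55.1 CPM in ft/ft libraries and at most 0.438 in ft/ftMyD88-/-. The study describes its mice as female, which the ft/ft libraries go against. Sex and genotype therefore cannot be told apart in any difference given here.

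Of the 9 genes, 4 were lower in ft/ftMyD88-/- skin (*Ppara*, *Rxra*, *Mc5r* and *Cidea*), 1 was higher (*Ppard*), and 4 did not pass the test (*Pparg*, *Ppargc1a*, *Ppargc1b* and *Angptl4*). The test was edgeR's quasi-likelihood test over 20454 genes with Benjamini-Hochberg adjustment at 0.05, which called 23.3% of all genes tested, 12.3% as lower and 10.9% as higher. The libraries of the groups did not overlap for 4 of the 9, against 26.7% of all genes tested. The median log2 fold change of the 9 genes was -0.33, and that of all genes tested was 0.01. All log2 fold changes are ft/ftMyD88-/- minus ft/ft.

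**Figure D1:**
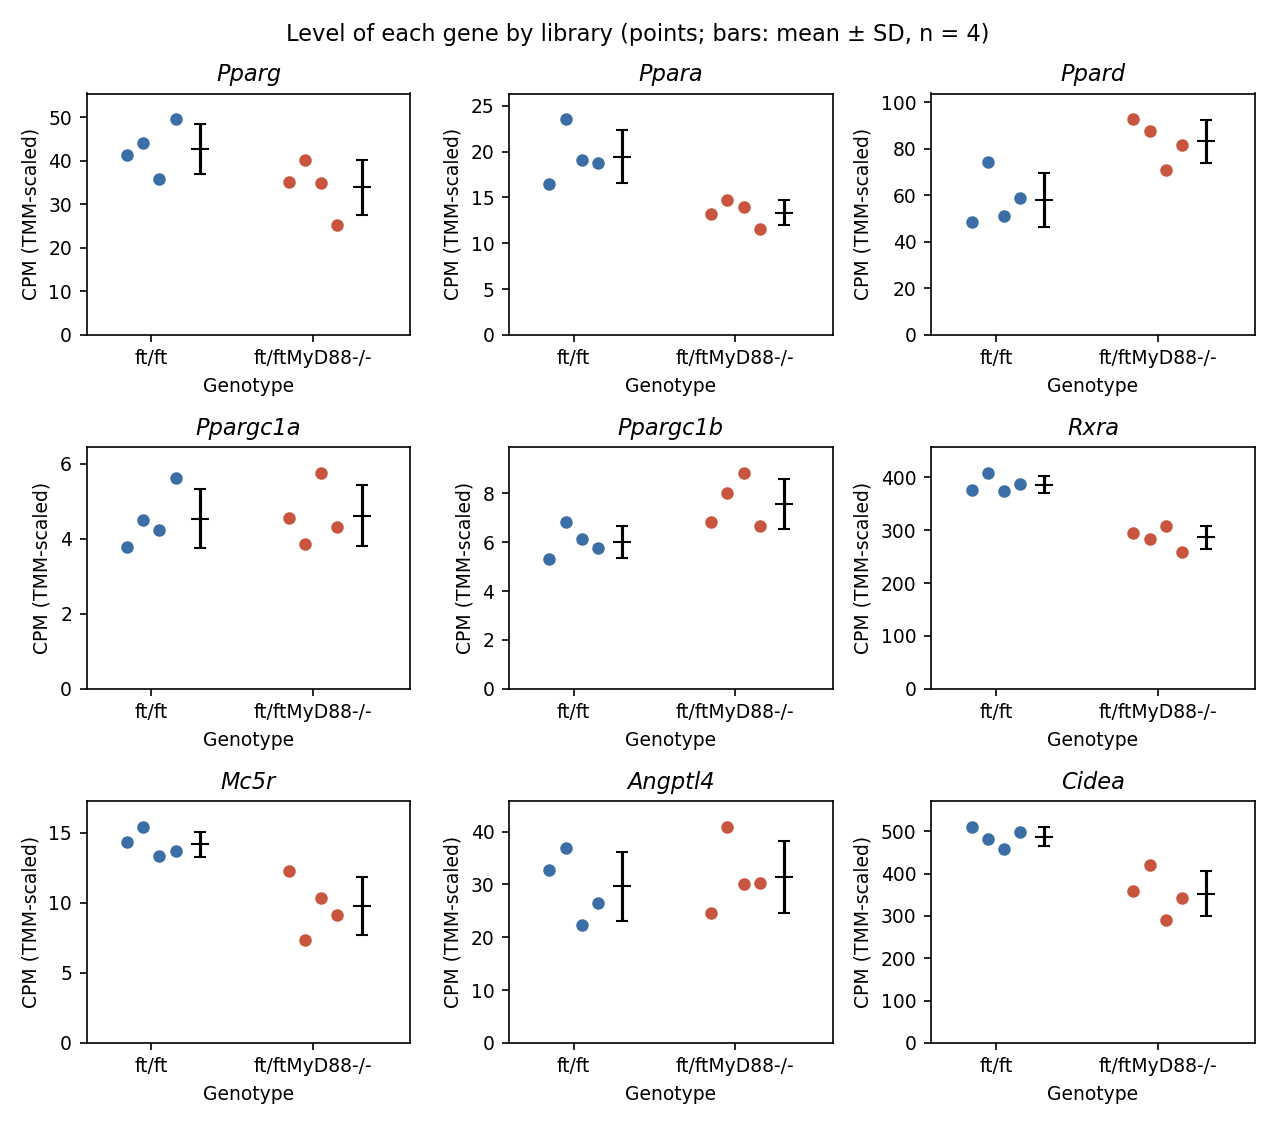
Level of each of the 9 genes in CPM (TMM-scaled, y axis from 0) by genotype (x axis); points are the 4 libraries of a group and bars are the mean ± SD. The groups do not overlap for *Ppara*, *Rxra*, *Mc5r* and *Cidea*, which lie lower in ft/ftMyD88-/-, and they overlap for the other genes.

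Among the receptors, *Pparg* (chromosome 6, 115360951 to 115490399 of GRCm38 in GENCODE M21, as for the positions that follow) stood at 41.2, 44.0, 35.9 and 49.5 CPM in ft/ft replicates 1 to 4 and at 35.1, 40.2, 34.9 and 25.2 in ft/ftMyD88-/-. The ranges overlapped, and the lowest value was that of ft/ftMyD88-/- replicate 4. Means were 42.7 ± 5.68 and 33.9 ± 6.28 (SD, n = 4 each), and the log2 fold change came to -0.33 (standard error, SE, 0.139, 95% interval -0.63 to -0.03). The edgeR adjusted p was 0.105, so the difference did not pass over all genes. Without ft/ftMyD88-/- replicate 4 the log2 fold change was -0.21 (edgeR adjusted p = 0.245).

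*Ppara* (chromosome 15, 85734983 to 85802819), the receptor tied to fatty acid oxidation, stood at 16.5, 23.5, 19.1 and 18.7 CPM in ft/ft skin and at 13.1, 14.8, 13.9 and 11.5 in ft/ftMyD88-/-. Each ft/ftMyD88-/- library lay below each ft/ft library. The log2 fold change was -0.54 (SE 0.128, edgeR adjusted p = 0.00979). Scaling by library size alone in place of TMM gave -0.36 and an edgeR adjusted p of 0.0592.

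*Ppard* (chromosome 17, 28232700 to 28301474) moved the other way, with 48.4, 74.2, 51.2 and 58.7 CPM in ft/ft skin and 92.7, 87.7, 70.9 and 81.6 in ft/ftMyD88-/-. Its groups overlapped through ft/ft replicate 2, which at 74.2 lay above ft/ftMyD88-/- replicate 3 at 70.9. The log2 fold change was 0.52 (SE 0.134, edgeR adjusted p = 0.0160), and without ft/ft replicate 3 it was 0.46 with an edgeR adjusted p of 0.0505.

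*Rxra* (chromosome 2, 27676440 to 27762957), the gene of the heterodimer partner RXRalpha, stood at 377, 408, 374 and 388 CPM in ft/ft skin and at 295, 284, 309 and 259 in ft/ftMyD88-/-, with a clear gap between the groups. The log2 fold change was -0.43 (SE 0.0863, edgeR adjusted p = 0.00412). With library size alone it was -0.25 and the edgeR adjusted p 0.0497.

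A ratio of 2 genes within a library does not depend on how libraries are scaled. The log2 count ratio of *Pparg* to *Ppard* was -0.44 ± 0.249 (SD, n = 4) in ft/ft and -1.31 ± 0.303 (SD, n = 4) in ft/ftMyD88-/-, a difference of -0.87. That of *Ppara* to *Ppard* was -1.57 ± 0.111 and -2.64 ± 0.229, a difference of -1.07. Neither ratio overlapped between the groups. Each had p = 0.0286 (two-sided exact permutation test), the smallest that 4 libraries against 4 allow, and 0.0714 after Benjamini-Hochberg adjustment over the 5 ratios examined, so they did not pass the correction. The ratios of *Pparg* to *Ppara* (difference 0.20, exact permutation p = 0.200, adjusted 0.250) and of *Pparg* to *Rxra* (difference 0.09, exact permutation p = 0.571, adjusted 0.571) overlapped between the groups. Leaving out 1 library in turn gave 0.12 to 0.29 for the first of these and -0.0014 to 0.18 for the second, which turned sign without ft/ftMyD88-/- replicate 2.

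Levels of different genes were compared per length, as TMM-scaled CPM per kb of annotated exon. Dividing by length takes reads to cover the whole transcript, which was not tested here. Without the division *Ppard* was above *Pparg*, at means of 58.1 against 42.7 CPM in ft/ft and 83.2 against 33.9 in ft/ftMyD88-/-. Per kb, *Pparg* was the highest of the PPARs in ft/ft, at 12.1 to 16.8 against 6.43 to 9.88 for *Ppard* and 4.30 to 6.13 for *Ppara*, with no overlap between neighbours. In ft/ftMyD88-/- the ranges of *Pparg* (8.53 to 13.6) and *Ppard* (9.44 to 12.3) overlapped, so those genes did not differ beyond their spread, and *Ppara* lay below both at 3.00 to 3.85. Over the 9 genes the order in ft/ft was *Cidea*, *Rxra*, *Pparg*, *Angptl4*, *Ppard*, *Ppara*, *Mc5r*, *Ppargc1b* and *Ppargc1a*, where *Angptl4* and *Ppard* overlapped. *Cidea* led at 437 ± 20.1 CPM per kb (SD, n = 4) and *Ppargc1a* closed at 0.689 ± 0.120 (SD, n = 4). In ft/ftMyD88-/- *Ppard* changed places with *Angptl4*, and *Pparg*, *Ppard* and *Angptl4* overlapped as neighbours, as did *Ppara*, *Mc5r* and *Ppargc1b*.

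**Figure D2:**
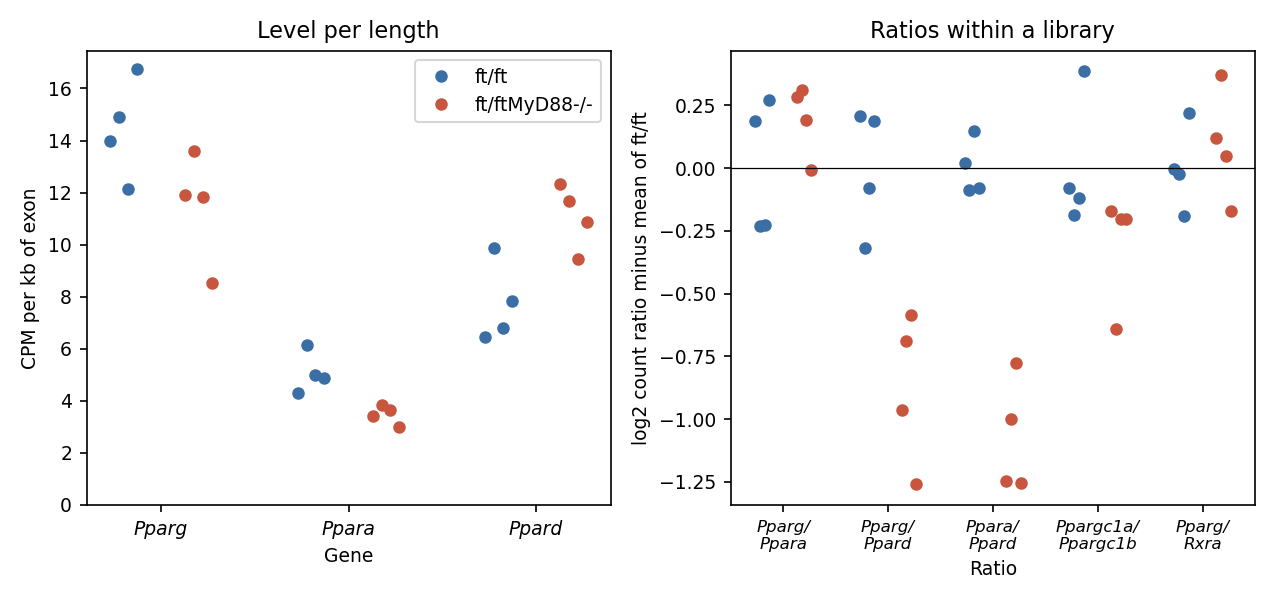
Left, level of *Pparg*, *Ppara* and *Ppard* in CPM per kb of exon (y axis from 0) in each library of ft/ft and ft/ftMyD88-/-. Right, 5 within-library log2 count ratios (x axis) as the difference from the ft/ft mean (y axis), 1 point per library; *Pparg*/*Ppard* and *Ppara*/*Ppard* are lower in each ft/ftMyD88-/- library than in each ft/ft library.

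A gene count pools transcripts from every start site of a gene, and RefSeq (GRCm38.p6) gives 3 start sites for *Pparg* and 2 for *Rxra*. The sequences before some of these starts are shown because the counts cannot say which start was used. They are the parts of the 250 bases upstream that hold no exon of GENCODE M21, in lower case on the strand of the gene, with capitals at the nuclear receptor core motif (AGGTCA, or TGACCT on the other strand) and at the GC box (GGGCGG, or CCGCCC).
*Pparg*, the middle start, chr6:115362099-115362291, + strand: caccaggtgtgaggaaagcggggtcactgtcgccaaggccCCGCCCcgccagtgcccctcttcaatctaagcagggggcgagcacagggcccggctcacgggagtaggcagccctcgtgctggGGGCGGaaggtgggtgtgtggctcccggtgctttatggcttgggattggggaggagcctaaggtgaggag
*Pparg*, the farthest downstream start, chr6:115421816-115422065, + strand: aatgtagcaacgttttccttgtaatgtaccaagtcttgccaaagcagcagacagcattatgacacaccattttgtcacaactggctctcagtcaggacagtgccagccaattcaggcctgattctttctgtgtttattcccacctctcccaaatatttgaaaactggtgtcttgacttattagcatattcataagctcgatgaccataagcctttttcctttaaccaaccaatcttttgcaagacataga
*Rxra*, the upstream start, chr2:27676951-27677200, + strand: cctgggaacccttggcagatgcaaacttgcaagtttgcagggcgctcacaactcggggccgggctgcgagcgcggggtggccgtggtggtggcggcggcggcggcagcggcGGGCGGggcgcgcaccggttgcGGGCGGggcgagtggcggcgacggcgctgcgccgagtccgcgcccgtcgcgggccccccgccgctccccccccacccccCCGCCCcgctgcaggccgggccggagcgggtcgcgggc
*Rxra*, the downstream start, chr2:27709042-27709291, + strand: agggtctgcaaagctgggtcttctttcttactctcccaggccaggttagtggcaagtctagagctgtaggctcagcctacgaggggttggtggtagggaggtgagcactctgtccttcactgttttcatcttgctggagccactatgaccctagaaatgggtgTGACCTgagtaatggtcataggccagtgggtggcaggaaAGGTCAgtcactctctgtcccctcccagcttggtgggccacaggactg
*Ppard*, chr17:28232504-28232699, + strand: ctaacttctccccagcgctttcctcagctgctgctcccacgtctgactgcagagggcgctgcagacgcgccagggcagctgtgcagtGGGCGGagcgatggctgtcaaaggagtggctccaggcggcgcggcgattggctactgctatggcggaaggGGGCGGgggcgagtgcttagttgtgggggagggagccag
The starts differed in composition. Over the full 250 bases, G and C made up 82.4% and 63.6% before the upstream and middle *Pparg* starts and 40.8% before the downstream one, and 81.2% and 55.2% before the *Rxra* starts. Windows of 5 of the 9 genes were examined, 8 in all. No window of *Ppargc1b*, *Mc5r*, *Cidea* or *Angptl4* was examined, so the motif counts do not cover these genes. The core motif AGGTCA was found on either strand in 3 of the 8, once before the upstream and once before the middle *Pparg* start and 2 times before the downstream *Rxra* start, and it is in 14.0% of 32851 windows of that length. Motifs were counted over the full 250 bases, so some matches lie outside the stretches shown, among them the AGGTCA matches of *Pparg*. GGGCGG was in 5 of the 8 and in 32.7% of all windows. The PPAR response element, searched as AGGTCA repeated in the same direction with 1 base of any kind between the copies and so overlapping the core motif, was in 0 of the 8 and in 0.0335% of all, and the cAMP response element TGACGTCA was in 0 of the 8 and in 1.55%. These are matches of letters in short windows and not bound sites.

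Of the coactivators, *Ppargc1a* (chromosome 5, 51454250 to 51567726), which encodes PGC-1alpha and is known in muscle and brown fat, stood at 3.77, 4.51, 4.24 and 5.64 CPM in ft/ft skin and at 4.56, 3.86, 5.75 and 4.33 in ft/ftMyD88-/-. The groups lay on top of each other, with a log2 fold change of 0.03 (95% interval -0.36 to 0.42, edgeR adjusted p = 0.930). *Ppargc1b* (chromosome 18, 61298136 to 61400431), the gene of PGC-1beta, stood at 5.32, 6.84, 6.14 and 5.75 CPM in ft/ft skin and at 6.84, 8.01, 8.81 and 6.65 in ft/ftMyD88-/-. Its log2 fold change of 0.34 (95% interval 0.02 to 0.65) had an edgeR adjusted p of 0.110 and did not pass, while with library size alone it was 0.52 with an edgeR adjusted p of 0.0234. The log2 ratio of *Ppargc1a* to *Ppargc1b* was -0.41 ± 0.261 in ft/ft and -0.72 ± 0.224 in ft/ftMyD88-/- (SD, n = 4 each), with overlap and p = 0.0571 (two-sided exact permutation test, 0.0952 adjusted over the 5 ratios). Its difference of -0.30 was -0.18 without ft/ft replicate 4 and -0.19 without ft/ftMyD88-/- replicate 2.

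Skeletal muscle markers moved with the groups. Of 10 muscle genes, 9 were lower in ft/ftMyD88-/-, and their summed level ran from 10449 to 14023 CPM in ft/ft skin and from 3945 to 7532 in ft/ftMyD88-/-, without overlap. *Myh4*, a fast myosin heavy chain and the most abundant of them, stood at 3018 ± 575 CPM in ft/ft libraries and 1392 ± 292 in ft/ftMyD88-/-, and skeletal actin *Acta1* at 2054 ± 294 and 1092 ± 311 (SD, n = 4 each). The part of muscle in the values of *Ppara* and *Ppargc1a* was not tested.

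Among the genes that act in the lipid-filled cell, *Mc5r* (chromosome 18, 68337596 to 68342446) stood at 14.3, 15.4, 13.3 and 13.7 CPM in ft/ft skin and at 12.3, 7.35, 10.3 and 9.15 in ft/ftMyD88-/-. The ft/ft libraries were close together and above all 4 ft/ftMyD88-/- libraries, which spread more widely. Its log2 fold change was -0.54 (SE 0.148, edgeR adjusted p = 0.0211). The call was the least stable of the 5. It was lost without ft/ft replicate 2 (-0.50, edgeR adjusted p = 0.0514), without ft/ftMyD88-/- replicate 2 (-0.42, edgeR adjusted p = 0.0509), without ft/ftMyD88-/- replicate 4 (-0.50, edgeR adjusted p = 0.0607) and with library size alone (-0.36, edgeR adjusted p = 0.0877).

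*Cidea* (chromosome 18, 67343604 to 67367785) encodes a lipid droplet protein that promotes droplet fusion and is known from brown fat and sebaceous glands. It stood at 509.7, 482, 459 and 499 CPM in ft/ft skin and at 359.5, 421, 289.7 and 343 in ft/ftMyD88-/-, without overlap. Means were 487 ± 22.4 and 353 ± 53.9 (SD, n = 4 each), and the log2 fold change came to -0.46 (SE 0.111, edgeR adjusted p = 0.0105), which with library size alone was -0.29 with an edgeR adjusted p of 0.0641. *Ucp1*, the defining gene of brown fat cells, held 3 to 16 counts in ft/ft and 2 to 6 in ft/ftMyD88-/-, between 0.0735 and 0.686 CPM. Of the 6 brown adipocyte genes 3 were lower (50.0% called, against 23.3% of all genes tested), namely *Prdm16*, *Cox7a1* and *Cox8b*. The last 2 encode cytochrome oxidase subunits that muscle also makes. *Dio2*, the deiodinase that activates thyroid hormone, was at 18.2 ± 2.03 and 30.2 ± 20.9 CPM (SD, n = 4 each; log2 fold change 0.73, edgeR adjusted p = 0.328) and did not pass.

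*Angptl4* (chromosome 17, 33773750 to 33781830) encodes a secreted inhibitor of lipoprotein lipase and is a textbook PPAR target. It stood at 32.8, 37.0, 22.3 and 26.5 CPM in ft/ft skin and at 24.5, 40.8, 30.1 and 30.2 in ft/ftMyD88-/-. The groups overlapped widely, with a log2 fold change of 0.08 (95% interval -0.31 to 0.48, edgeR adjusted p = 0.779).

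**Figure D3:**
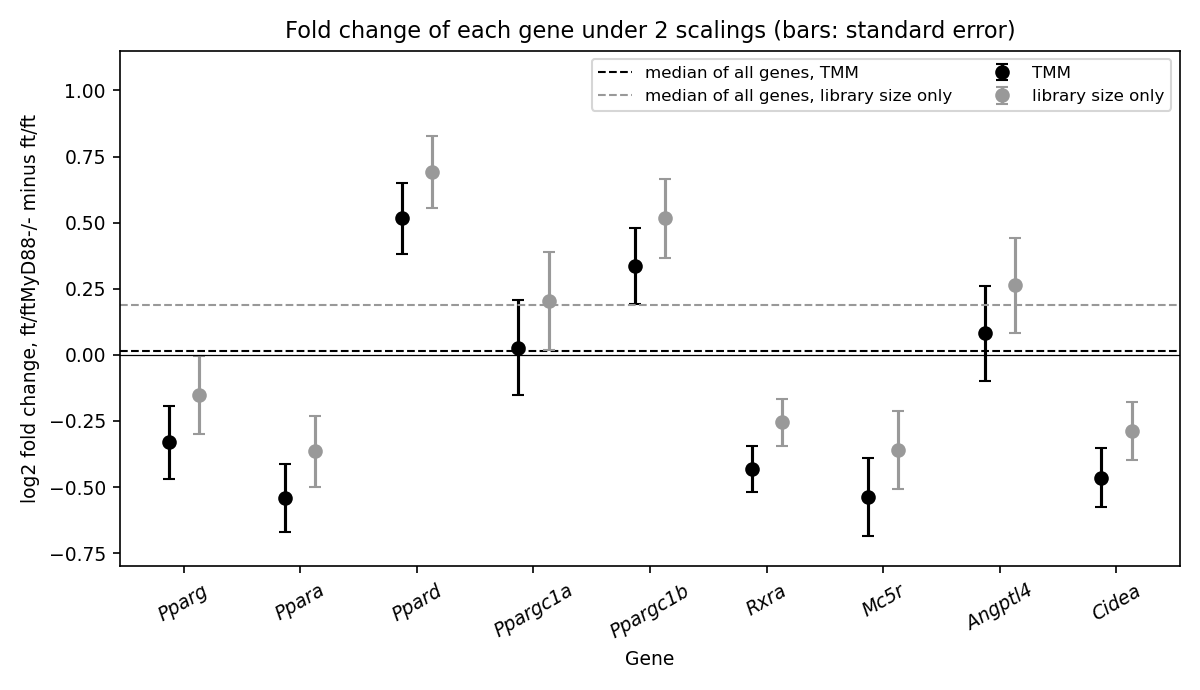
Log2 fold change (y axis, ft/ftMyD88-/- minus ft/ft, bars are standard errors) of each gene (x axis) with TMM scaling (black) and with library size alone (grey); dashed lines are the median of all genes under each. Both the points and the median shift upward with library size alone, from a median of 0.01 to 0.19.

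Library size alone moved the median of all genes from 0.01 to 0.19, since TMM factors were 0.922 to 0.954 in ft/ft and 1.04 to 1.09 in ft/ftMyD88-/-. Relative to that median, *Ppara* was at -0.56 with TMM and -0.55 with library size alone, *Rxra* at -0.45 and -0.44, *Mc5r* at -0.55 and -0.55, *Cidea* at -0.48 and -0.48, and *Ppard* at 0.50 and 0.50. A change of scaling shifts all genes by nearly the same amount. These pairs of values therefore had to be alike, and they do not test the calls. The number of the 9 genes called was 5 with TMM (1 higher and 4 lower) and 3 with library size alone (2 higher and 1 lower).

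A list of 13 sebocyte markers that holds none of the 9 genes was lower in the same group. Of its genes 7 were lower in ft/ftMyD88-/- and 0 higher by edgeR, and 6 did not pass, while DESeq2 and limma voom each called 7. By edgeR 53.8% of the list were called, against 23.3% of all genes tested. Its median log2 fold change was -0.39, and its summed level ran from 21854 to 24292 CPM in ft/ft skin and from 13113 to 19357 in ft/ftMyD88-/-, without overlap. *Scd1*, the stearoyl-CoA desaturase that makes up 57.5% of the list's counts, was at 13795 ± 923 and 8763 ± 1742 CPM (SD, n = 4 each; log2 fold change -0.65, edgeR adjusted p = 0.00842). *Krt79*, a keratin of the sebaceous duct, was at 2421 ± 178 and 2405 ± 159 CPM (SD, n = 4 each; log2 fold change -0.01, edgeR adjusted p = 0.959). In a whole biopsy, fewer sebocytes and less RNA per sebocyte cannot be told apart. By histology, the paper reports no difference in sebaceous gland number and larger glands in ft/ftMyD88-/-, and it gives no count of sebocytes.

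Set against the summed sebocyte markers of the same library, a scale chosen after the values were seen and given with no test, the genes fell into different positions. The log2 ratio of *Cidea* to that sum differed between the groups by 0.06, that of *Mc5r* by -0.03, that of *Ppara* by -0.01, that of *Rxra* by 0.10 and that of *Pparg* by 0.19, each with overlap between the groups. *Ppard*, at a difference of 1.06, and *Ppargc1b*, at 0.86, were higher in each ft/ftMyD88-/- library than in any ft/ft library on this scale. In CPM the groups overlapped for both *Ppard* and *Ppargc1b*. *Angptl4* (0.62) and *Ppargc1a* (0.56) overlapped on the sebocyte scale. The sum of the markers was itself lower in ft/ftMyD88-/-, so a gene with an unchanged CPM lies above 0 on this scale. *Ppargc1a*, with a log2 fold change of 0.03 in CPM, is an example. With the mean log2 count of the list in place of its sum, the difference was 0.06 for *Pparg*, -0.14 for *Ppara* and -0.16 for *Mc5r*, and it turned sign for *Rxra* (-0.03) and *Cidea* (-0.08). On that scale *Ppard* was at 0.93, *Ppargc1b* at 0.73, *Angptl4* at 0.49 and *Ppargc1a* at 0.43.

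**Figure D4:**
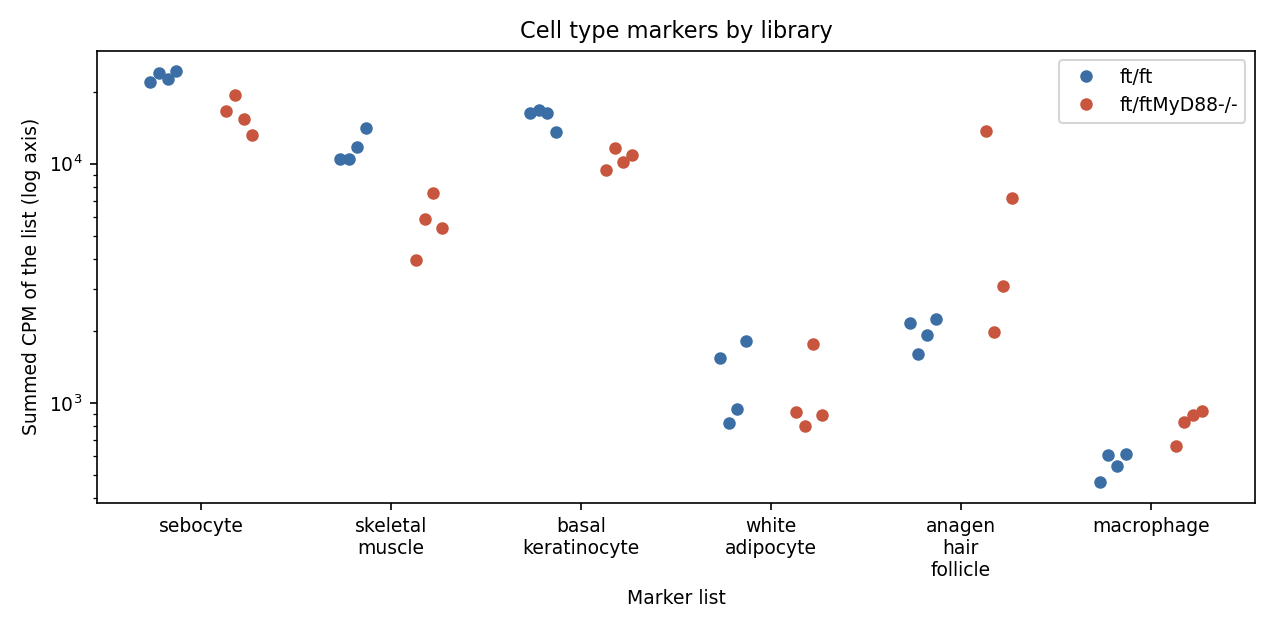
Summed CPM of 6 marker lists (y axis, log scale) in each library, by list (x axis) and genotype (colour). Sebocyte, skeletal muscle and basal keratinocyte sums are lower in each ft/ftMyD88-/- library than in any ft/ft library, white adipocyte sums overlap, and anagen hair follicle sums spread most in ft/ftMyD88-/-.

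Markers of other cell types were examined beside the 23.3% of all genes tested that edgeR called. The share called was 80.0% of the basal and 33.3% of the differentiated keratinocyte list. It was 25.0% of the neutrophil and anagen hair follicle lists, near that of all genes, and 16.7% of the macrophage and melanocyte lists. White adipocyte and hyperproliferative keratinocyte lists had 0.0%. Sums overlapped between the groups for white adipocyte, hyperproliferative keratinocyte, melanocyte and anagen hair follicle lists. Of 5 basal keratinocyte genes 4 were lower (summed level 13565 to 16691 CPM in ft/ft skin and 9442 to 11638 in ft/ftMyD88-/-), with *Krt14* at a log2 fold change of 0.05 (edgeR adjusted p = 0.839). Of 6 genes of differentiated keratinocytes 2 were lower (13885 to 17900 and 10857 to 13862 CPM), among them *Krt10* but not *Krt1*. White adipocyte genes, with *Fabp4* (log2 fold change 0.12) and *Cfd* (-0.44) as the most abundant, had 0 of 9 called by edgeR, 0 at an unadjusted p under 0.05 and 0 by DESeq2 or limma voom, and their sums overlapped (826 to 1823 and 803 to 1756 CPM). Hyperproliferative keratinocyte genes had 0 of 4 called by edgeR, 2 at an unadjusted p under 0.05, 2 by DESeq2 and 1 by limma voom (2784 to 3573 and 3208 to 5403 CPM), and *Krt17* was at a log2 fold change of 0.31 and *Krt6a* at 0.49. Of 6 macrophage genes 1 was higher, *Lyz2* (466 to 609 and 659 to 924 CPM for the list), while *Csf1r* was at a log2 fold change of -0.21 (edgeR adjusted p = 0.241). Of 4 neutrophil genes 1 was higher by edgeR, and 3 were by DESeq2, by limma voom and at an unadjusted p under 0.05 (21.5 to 250.03 and 399 to 958 CPM). The value of 250.03 was that of ft/ft replicate 2, and the other ft/ft libraries lay between 21.5 and 36.1. The most abundant genes of the list, *S100a8* and *S100a9*, which keratinocytes can also make, had a log2 fold change of 3.22 each and did not pass (edgeR adjusted p = 0.126 and 0.123). Of 6 melanocyte genes 1 was higher (172 to 249 and 173 to 302 CPM), with *Dct* at a log2 fold change of 0.20 and *Pmel* at -0.12, neither called. Of 8 anagen hair follicle genes 2 were higher by edgeR, 8 by DESeq2 and 5 by limma voom, with 8 at an unadjusted p under 0.05. *Krt71* and *Tchh*, its most abundant genes, did not pass (log2 fold change 1.54 and 1.81, edgeR adjusted p = 0.116 and 0.0981), and the summed level ran from 1598 to 2250 CPM in ft/ft but from 1979 to 13646 in ft/ftMyD88-/-, highest in replicates 1 and 4. The part of these lists in the values of the 9 genes was not tested.

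Genes known as PPAR targets were examined as a list of 40, of which 38 were tested. In ft/ftMyD88-/-, 15 were lower, 2 were higher and 21 did not pass, so 44.7% were called where 23.3% of all genes tested were. The list's median log2 fold change was -0.34. With library size alone 12 were lower and 3 higher. The part of muscle in the values of these targets was not tested. The 4 with the smallest adjusted p were genes of fatty acid oxidation or acyl-CoA handling. *Acaa1b*, a peroxisomal thiolase, was at 92.3 ± 8.55 CPM in ft/ft skin and 40.8 ± 8.61 in ft/ftMyD88-/- (log2 fold change -1.18, edgeR adjusted p = 2.03e-04). *Acadm*, the medium-chain acyl-CoA dehydrogenase, was at 245 ± 17.4 and 165 ± 10.1 (-0.57, edgeR adjusted p = 9.03e-04). *Hadha*, the alpha subunit of the mitochondrial trifunctional protein, was at 384 ± 20.6 and 271 ± 6.92 (-0.51, edgeR adjusted p = 0.00118), and *Acot1*, an acyl-CoA thioesterase, at 248 ± 13.5 and 162 ± 21.0 (-0.61, edgeR adjusted p = 0.00159), all SD with n = 4 each and without overlap between the groups.

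The 2 higher targets were named after their values were seen. *Fabp5*, the epidermal fatty acid binding protein, was at 774 ± 70.5 CPM in ft/ft skin and 1395 ± 446 in ft/ftMyD88-/- (SD, n = 4 each; log2 fold change 0.85, edgeR adjusted p = 0.00830). *Fgf21* held 2, 3, 0 and 1 counts in ft/ft skin, against 16, 1, 12 and 11 in ft/ftMyD88-/-, with overlap. *Ucp2* (log2 fold change 0.00, edgeR adjusted p = 0.995) and *Adipoq* (-0.06, edgeR adjusted p = 0.945) are examples of targets that did not pass, also named after their values were seen.

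**Figure D5:**
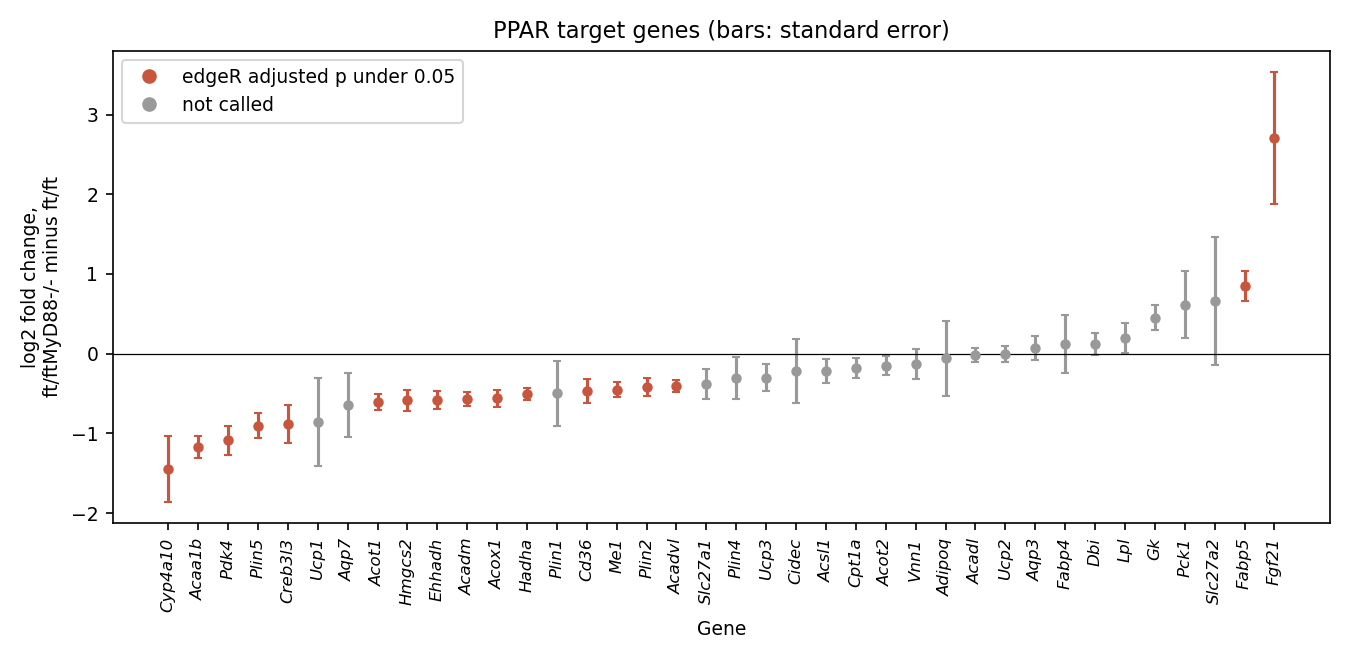
Log2 fold change (y axis, ft/ftMyD88-/- minus ft/ft, bars are standard errors) of the 38 tested PPAR target genes (x axis), sorted by value. Red marks an edgeR adjusted p under 0.05, with 15 genes below 0 and 2 above; the estimate of *Fgf21*, at the far right, rests on few counts.

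The other nuclear receptors that pair with RXR, the remaining RXRs and the cofactors made a list of 27 genes, all tested. Of these 3 were higher, 5 lower and 19 not called (29.6% called, near the 23.3% of all genes tested, median log2 fold change 0.02), and with library size alone 7 were higher and 3 lower. *Prdm16*, a coregulator known from brown fat, was at 6.40 ± 1.18 CPM in ft/ft skin and 2.48 ± 0.181 in ft/ftMyD88-/- (log2 fold change -1.36, edgeR adjusted p = 2.78e-04). *Thra*, a thyroid hormone receptor, was at 101 ± 3.95 and 65.3 ± 7.98 (-0.63, edgeR adjusted p = 8.23e-04). *Rxrg*, the retinoid X receptor known from muscle, was at 7.87 ± 0.593 and 4.17 ± 0.994 (-0.91, edgeR adjusted p = 0.00385), while *Rxrb*, named after its value was seen, was at -0.15 (edgeR adjusted p = 0.212). *Pprc1*, a relative of PGC-1alpha, was at 25.4 ± 3.95 and 35.8 ± 2.97 (0.49, edgeR adjusted p = 0.0106), all SD with n = 4 each.

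The melanocortin list, with ligands, antagonists, the other receptors and their accessory proteins, held 11 genes, of which 8 were tested and 3 were not used here. Of the 8, 2 were higher and 0 lower by edgeR (25.0% called, near the 23.3% of all genes tested), and DESeq2 and limma voom also called 2. *Pcsk1*, a protease that cleaves the precursor *Pomc*, was at 0.546 ± 0.0788 CPM in ft/ft skin and 2.09 ± 0.539 in ft/ftMyD88-/- (SD, n = 4 each; log2 fold change 1.91, edgeR adjusted p = 5.70e-04). *Mc1r*, the receptor of pigment cells, was at 1.70 ± 0.563 and 4.64 ± 2.16 (SD, n = 4 each; 1.45, edgeR adjusted p = 0.0158). The melanocyte list, given above, also held 1 higher gene, *Mlana*, named after its value was seen, and its sums overlapped between the groups. *Mrap2* (1.72, edgeR adjusted p = 0.145) and *Agrp* (0.41, edgeR adjusted p = 0.351) did not pass, nor did *Pomc*, named after its value was seen, at 0.244 ± 0.0690 and 0.172 ± 0.0835 CPM (SD, n = 4 each).

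Regulators of lipid droplets and lipases made a list of 23 genes, 6 of which (26.1%) are also among the 40 PPAR targets. Of 21 tested, 7 were lower, 1 higher and 13 not called (38.1% called against 23.3% of all genes tested, median log2 fold change -0.22), and with library size alone 4 were lower and 3 higher. *Lmf1*, a maturation factor of lipoprotein lipase, was at 24.1 ± 0.715 CPM in ft/ft skin and 13.2 ± 1.26 in ft/ftMyD88-/- (log2 fold change -0.87, edgeR adjusted p = 1.78e-04). *Fitm1*, a fat storage protein known from muscle, was at 13.7 ± 2.01 and 5.90 ± 1.35 (-1.20, edgeR adjusted p = 7.01e-04). *Bscl2*, the gene of seipin, was at 137 ± 2.13 and 96.8 ± 8.67 (-0.50, edgeR adjusted p = 0.00168), and *Plin5*, a droplet protein of oxidative tissue, at 16.6 ± 3.26 and 8.86 ± 1.46 (-0.90, edgeR adjusted p = 0.00223), all SD with n = 4 each. The 1 higher gene, named after its values were seen, was *Angptl8*, with 1, 1, 2 and 1 counts in ft/ft skin, against 7, 14, 25 and 3 in ft/ftMyD88-/-. *Lpl*, the lipase that *Angptl4* inhibits, was at 321 ± 70.5 and 368 ± 94.7 CPM (SD, n = 4 each; log2 fold change 0.20, edgeR adjusted p = 0.495) and was added after its value was seen.

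Genes whose pattern over the 8 libraries lay closest to that of *Pparg*, *Mc5r* or *Cidea* were found by the root mean square difference of log2 CPM after centring each gene, among 13507 other genes with a mean of at least 50 counts. The nearest to *Pparg*, whose own root mean square deviation was 0.269, were *Slc25a22* (0.0760), *Fam73b* (0.0864) and *Gpam* (0.0958), the last of which encodes the mitochondrial glycerol-3-phosphate acyltransferase. For *Mc5r* they were *Phldb3* (0.0804), *Xk* (0.0843) and *Kbtbd4* (0.0888), and for *Cidea* they were *Crabp2* (0.0650), *Emc9* (0.0667) and *Klhdc3* (0.0684). *Crabp2* encodes a retinoic acid binding protein of skin. The search returns the nearest genes whatever their distance, and no test was run on the distances. Nearness was therefore not taken as a link in function.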

How the data were processed

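Periocular skin of 4 ft/ft and 4 ft/ftMyD88-/- mice was compared. Per the paper's methods, polyA-selected TruSeq libraries were read single end and aligned to GRCm38.p6 (HISAT, TopHat2), and HTSeq at default settings is named for differential expression, with no counting step given, whereas the labels name total RNA, a fixed-tissue protocol and Cell Ranger. The file was not tested against either account. Versions and the strand setting are not given in the sources used here. The authors deposited raw counts per gene without normalization.

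A gene entered the test with a sum of 10 or more counts (20454 genes), by edgeR 4.0.16 in R 4.3.3 (TMM, glmQLFit with robust = TRUE, glmQLFTest, two-sided, no covariate) and Benjamini-Hochberg adjustment at 0.05. Standard errors and 95% intervals came from the F values. Permutation tests were exact (scipy 1.17.1). The exons of the 9 members overlapped no other gene of the annotation; other genes were not checked. In simulated data for this comparison (20146 genes tested, 200 changed by a log2 fold change of 2), 193 changed and 9 unchanged genes were called. The log2 fold changes of the 9 members were all smaller than 2, so this recovery does not apply to changes of their size.

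Members and lists were chosen with earlier results of these data known. Named were the 9 members, the 4 smallest adjusted p-values of each pathway list, the 2 most abundant genes of marker lists given beside a result, and the 3 nearest patterns of *Pparg*, *Mc5r* and *Cidea*; genes named beyond this rule were added after their values were seen. Replicate pairs differed by more than counting noise (chi-square divided by its degrees of freedom, 16.3 or more). The study gives 4 mice a group, while the labels number the libraries without naming animals, so p-values measure the spread between libraries. Floors cover counting error only. Alternatives were DESeq2 1.42.0, limma 3.58.1 (voom), RLE scaling, library size alone, filterByExpr, no filter, the replicate number as a block and each library left out.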

Additional observations from a re-analysis of the deposited data

Results flagged for a closer look

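Of 28 groups of 4 values examined for a library far from the others, 1 stood out, where chance gives about 1 in 20. The within-library log2 count ratio of *Ppargc1a* to *Ppargc1b* was -1.05 in ft/ftMyD88-/- replicate 2, the lowest of its group. Its gap to the nearest library was 0.929 of the whole range of the group, above the critical value of Dixon for 4 samples. In that library *Ppargc1a* was at 3.86 CPM, the lowest of the group, and *Ppargc1b* at 8.01, below replicate 3 at 8.81.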

How the results depend on the processing

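Of 241 values under alternatives, 226 kept their direction and their side of the threshold or stayed within the allowed range, and 15 did not. Some small values that changed sign were counted among the 226. Examples are *Cidea* against the sebocyte markers (0.06, and -0.08 with the mean log2 count) and the ratio of *Pparg* to *Rxra* (0.09, and -0.0014 without ft/ftMyD88-/- replicate 2). With library size alone, 3 of the 9 genes were called, *Ppara* (log2 fold change -0.36), *Mc5r* (-0.36) and *Cidea* (-0.29) lost their call, and *Ppargc1b* (0.52) gained one, while the calls over all genes went from 2239 higher and 2525 lower to 4638 higher and 1326 lower. The shift of the median of all genes by that scaling is given in the report. Leaving out each library in turn gave -0.42 to -0.21 for *Pparg*, 0.44 to 0.66 for *Ppard* and -0.66 to -0.42 for *Mc5r*, with the lost calls named in the report, and -0.087 to 0.15 for *Ppargc1a* and -0.067 to 0.21 for *Angptl4*, whose direction changed between these fits. Calls over all genes ran from 3346 to 4668 in those fits. *Rxra* kept its call in all 15 alternatives (edgeR, DESeq2 or limma adjusted p from 4.12e-06 to 0.0497), *Pparg* was not called in any of 15 (0.0625 to 0.472). With 0.5 counts added, the 5 ratios kept their direction and side of the threshold. Without 1 library the exact test of a ratio cannot go below p = 0.0571, so those fits give values and no test.

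Replicate numbers are shared across the groups, but the deviations of same-numbered libraries correlated at -0.35 to 0.07 and 1 of 8 libraries correlated best with its own number, so the numbers were not taken as pairs. With the replicate block, 4039 genes were called over all and 5 of the 9 genes. DESeq2 called 2865 genes higher and 2777 lower. Depth limits the genes at or under 3 counts, such as *Fgf21* and *Angptl8* in ft/ft.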
